A study of Mus musculus with 4 samples.

Results

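The genes described here encode enzymes and regulators of cholesterol and fatty acid synthesis. Of 30 genes chosen by name, 28 had a probe on the array, among 16593 genes in all; Mvk and Fdft1 were not analysed here. They fall into 4 groups by role: the mevalonate arm (5 genes measured), the arm from squalene to cholesterol (10), regulators and sterol transport (4) and fatty acid synthesis and desaturation (9). Where a gene had several probes, the one that was brightest on average over the 4 arrays stands for it. The study hybridised RNA of 2 mouse cell types to Illumina bead arrays, with 2 arrays of each, described by the labels as biological replicates. The first kind, epiblast stem cells (EpiSCs), are pluripotent cells of the postimplantation epiblast. The second, named parnate/mAMFGi, were obtained from EpiSCs by treatment with small molecules and are labelled converted mouse ESCs. Parnate (tranylcypromine) inhibits the histone demethylase LSD1, and the labels do not spell out mAMFGi. Per the labels, EpiSCs grew with 20% serum replacement and 10 ng/ml bFGF, and the converted cells with 10% fetal bovine serum and 1000 units/ml LIF, both on irradiated mouse embryonic fibroblast feeders. Serum, growth factor and conversion therefore cannot be told apart in this comparison. No source used here gives strain, sex or passage.

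Animal cells build cholesterol from acetyl-CoA through mevalonate, squalene and a series of sterol intermediates, and build fatty acids from acetyl-CoA through malonyl-CoA. Many of these genes are targets of the SREBP transcription factors, which are held in the endoplasmic reticulum by SCAP and INSIG proteins when sterols are plentiful and are cut and released to the nucleus when sterols run low. Cells in culture can take up cholesterol and fatty acids from serum lipoproteins and albumin or make their own.

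As a group, cholesterol and fatty acid synthesis genes were lower in parnate/mAMFGi cells than in EpiSCs, with some falls in each of the 4 roles. Of the 28 genes, 20 fell, 0 rose and 8 did not pass an adjusted p of 0.05 (limma, Benjamini-Hochberg over 25697 probes). Over all 16593 genes, 21.2% fell and 20.2% rose by the same rule. The genes that fell make up 71.4% of the group. At an unadjusted p under 0.05, the counts in limma were again 20 lower and 0 higher. The shares of all genes at that looser threshold were not counted. The falls ran from 1.32-fold (Lss) to 4.08-fold (Acss2), with adjusted p-values between 2.81e-10 and 0.0107. At least 2-fold falls numbered 10 of 28 (35.7%), against 6.32% of all genes. The median log2 fold change (parnate/mAMFGi minus EpiSC) was −0.64, against 0.02 over all genes. In 20 of 28 genes both parnate/mAMFGi arrays lay below both EpiSC arrays, an arrangement found in 30.7% of all genes, and these were the 20 that passed. The reverse arrangement, found in 35.5% of all genes, held for Fasn alone.

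**Figure D1:**
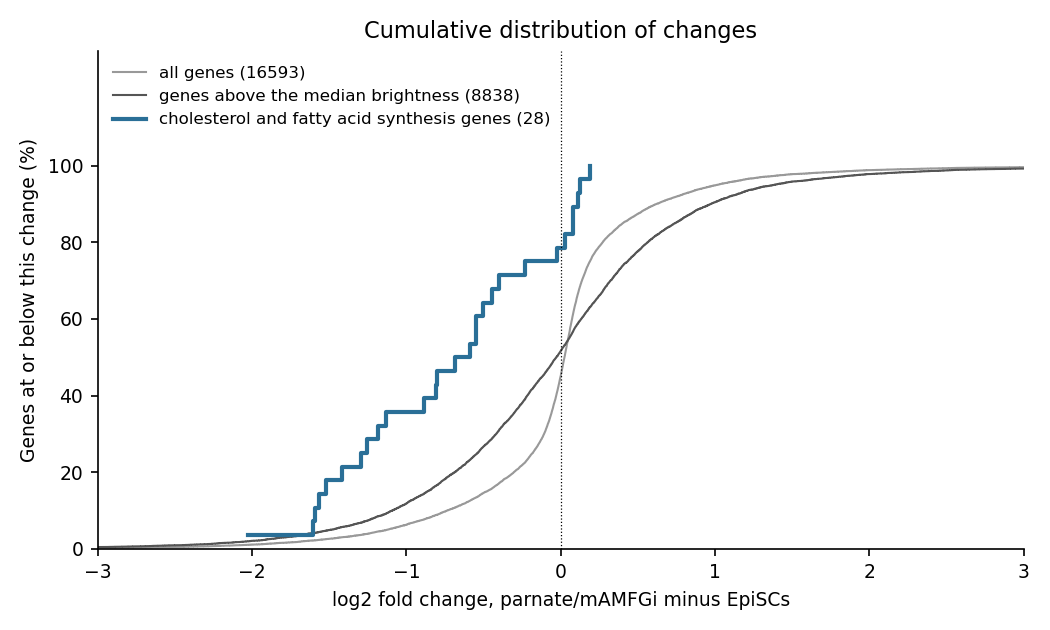
Cumulative distribution of log2 fold changes (x axis, parnate/mAMFGi minus EpiSC, cropped at 3 on either side) as a percentage of genes (y axis), for all 16593 genes, for the 8838 genes above the median brightness of all probes and for the 28 cholesterol and fatty acid synthesis genes. The curve of the 28 genes lies to the left of both others over most of its range, with its median at −0.64, and ends at 0.19.

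Probe brightness differs between these genes and the rest of the array, and bright probes were called more often. Among the 8838 genes brighter than the median of all probes, 37.1% fell and 32.7% rose. Of the 28 synthesis genes 27 were this bright, and 20 of them (74.1%) fell, with a median log2 fold change of −0.69 against −0.03 for all genes of that brightness. Falls of at least 2-fold numbered 1049 of the 8838 and 10 of the 27. Both parnate/mAMFGi arrays lay below both EpiSC arrays in 3908 of the 8838 and 20 of the 27. The lowest intensity on the arrays was 25.5 and the array medians were 50 to 52, so some background is left in each value and folds of dim genes are understated. Taken across probes (which are no replicates), the correlation of log2 intensities was 0.996 within EpiSCs, 0.998 within parnate/mAMFGi cells and 0.942 to 0.945 between groups.

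Promoter sequences are shown for 6 genes that fell, from all 4 roles, and for Ebp, which did not pass, as a contrast. RefSeq promoter windows (GRCm38.p6, 250 bases before to 50 after each annotated start) were found for 22 of the 28 genes; those of Fads1, Fdps, Scd1, Scd2, Sqle and Stard4 were not analysed here. The stretches run 5′ to 3′ on the gene's own strand over the 240 bases before the start. Capitals mark matches on either strand to a sterol regulatory element core (TCACNCCAC), an NF-Y box (CCAAT) or an Sp1 box (GGGCGG); NF-Y and Sp1 are general factors known to act beside SREBPs. No marked matches overlap each other in these stretches.
Hmgcs1, chr13:119690111-119690350, plus strand, fell: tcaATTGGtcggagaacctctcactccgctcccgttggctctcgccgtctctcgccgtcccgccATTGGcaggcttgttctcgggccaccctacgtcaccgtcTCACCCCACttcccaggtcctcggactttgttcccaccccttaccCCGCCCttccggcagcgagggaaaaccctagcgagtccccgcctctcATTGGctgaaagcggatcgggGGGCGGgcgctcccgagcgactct
Mvd, chr8:122443423-122443662, minus strand, fell: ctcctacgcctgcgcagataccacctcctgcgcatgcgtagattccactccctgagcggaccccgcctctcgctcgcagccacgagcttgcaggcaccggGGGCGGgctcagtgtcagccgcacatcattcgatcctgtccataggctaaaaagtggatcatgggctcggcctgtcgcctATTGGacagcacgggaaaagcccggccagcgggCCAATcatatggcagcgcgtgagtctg
Cyp51, chr5:4104698-4104937, minus strand, fell: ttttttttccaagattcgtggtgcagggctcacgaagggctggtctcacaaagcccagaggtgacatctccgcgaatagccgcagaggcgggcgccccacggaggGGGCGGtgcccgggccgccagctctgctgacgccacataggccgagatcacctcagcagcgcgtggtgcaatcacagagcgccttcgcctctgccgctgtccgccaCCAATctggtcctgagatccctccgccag
Msmo1, chr8:64733579-64733818, minus strand, fell: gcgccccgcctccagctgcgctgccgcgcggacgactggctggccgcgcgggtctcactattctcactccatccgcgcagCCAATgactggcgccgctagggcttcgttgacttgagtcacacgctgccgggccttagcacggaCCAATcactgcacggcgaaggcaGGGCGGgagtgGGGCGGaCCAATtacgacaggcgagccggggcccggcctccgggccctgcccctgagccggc
Insig1, chr5:28071172-28071411, plus strand, fell: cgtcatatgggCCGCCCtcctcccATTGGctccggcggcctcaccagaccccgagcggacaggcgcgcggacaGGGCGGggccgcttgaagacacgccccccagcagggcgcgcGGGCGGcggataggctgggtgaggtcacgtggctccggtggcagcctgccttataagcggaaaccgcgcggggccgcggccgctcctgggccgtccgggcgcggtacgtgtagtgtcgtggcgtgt
Acss2, chr2:155517803-155518042, plus strand, fell: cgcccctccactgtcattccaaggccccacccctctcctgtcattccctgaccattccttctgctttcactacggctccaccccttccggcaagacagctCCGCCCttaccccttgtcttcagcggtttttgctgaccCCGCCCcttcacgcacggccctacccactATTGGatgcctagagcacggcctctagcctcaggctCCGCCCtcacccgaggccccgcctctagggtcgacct
Ebp, chrX:8193513-8193752, minus strand, did not pass: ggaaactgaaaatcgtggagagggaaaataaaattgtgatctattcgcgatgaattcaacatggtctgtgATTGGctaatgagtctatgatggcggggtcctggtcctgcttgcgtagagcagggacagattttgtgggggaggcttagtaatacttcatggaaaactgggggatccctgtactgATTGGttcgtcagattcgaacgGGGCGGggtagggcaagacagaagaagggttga

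The Hmgcs1 stretch holds the sterol element letters once, starting at position −137 before the start, with NF-Y boxes starting at −237, −176 and −45. Hmgcs1 was the 1 gene of 22 with these letters in a window (4.55%), against 1.44% of 27025 genes with a window. A gene with several windows was counted if any of them matched, and 19 of the 22 had 1 window. NF-Y boxes were found in the windows of 19 of 22 synthesis genes (86.4%), against 41.1% of all genes with a window and 42.5% of the 13336 of them on the array. Msmo1 holds 3 of them before its start, at −160, −96 and −55, and Cyp51, Insig1 and Acss2 hold 1 each. Sp1 boxes were found in 18 of 22 (81.8%), against 38.2% of all genes and 53.6% of those on the array. The genes that fell and those that did not pass held the boxes in similar shares: 14 of 16 and 5 of 6 for the NF-Y box, and 13 of 16 and 5 of 6 for the Sp1 box. Ebp, which did not pass, holds 2 NF-Y boxes and 1 Sp1 box. A match describes letters in a window and is not a measured binding site. Only the core TCACNCCAC was searched, so a window without it may still hold a sterol element of other letters.

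In the mevalonate arm all 5 measured genes fell, against 37.1% of the brighter genes of the array, with a median log2 fold change of −1.25. Hmgcs1, the cytosolic synthase that makes HMG-CoA, read 29693.4 and 25504.1 on the EpiSC arrays and 11246.8 and 11842.6 on the parnate/mAMFGi arrays. The groups lay far apart, and the fall was 2.38-fold (95% interval 2.05 to 2.77, limma adjusted p = 1.27e-07). Its promoter stretch is the one above that carries the sterol element letters. Pmvk, which phosphorylates phosphomevalonate, read 461.8 and 695.6 in EpiSCs and 271.4 and 230 in parnate/mAMFGi cells. Its EpiSC arrays differed from each other more than those of any other gene here, by 0.59 on the log2 scale, and still did not overlap with the other group (2.27-fold lower, 95% interval 1.81 to 2.84, adjusted p = 1.48e-05). Mvd, the decarboxylase that ends the mevalonate steps with isopentenyl diphosphate, read 1547.9 and 1701.4 against 576.6 and 554. This was a 2.87-fold fall (95% interval 2.49 to 3.31, adjusted p = 9.00e-09), and 2.51% of all genes had a lower log2 fold change.

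Idi1 and Fdps use isopentenyl diphosphate, the first as isomerase and the second to build farnesyl diphosphate, which also serves protein prenylation. Idi1 read 399.9 and 483 in EpiSCs and 281 and 320.4 in parnate/mAMFGi cells, the smallest change of this arm as measured (log2 fold change −0.55, SE 0.11, limma adjusted p = 9.30e-04). Fdps read 13797.4 and 12056.3 against 5673.9 and 4875.2, a 2.45-fold fall (95% interval 2.09 to 2.88, adjusted p = 1.59e-07). The groups overlapped for neither gene.

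**Figure D2:**
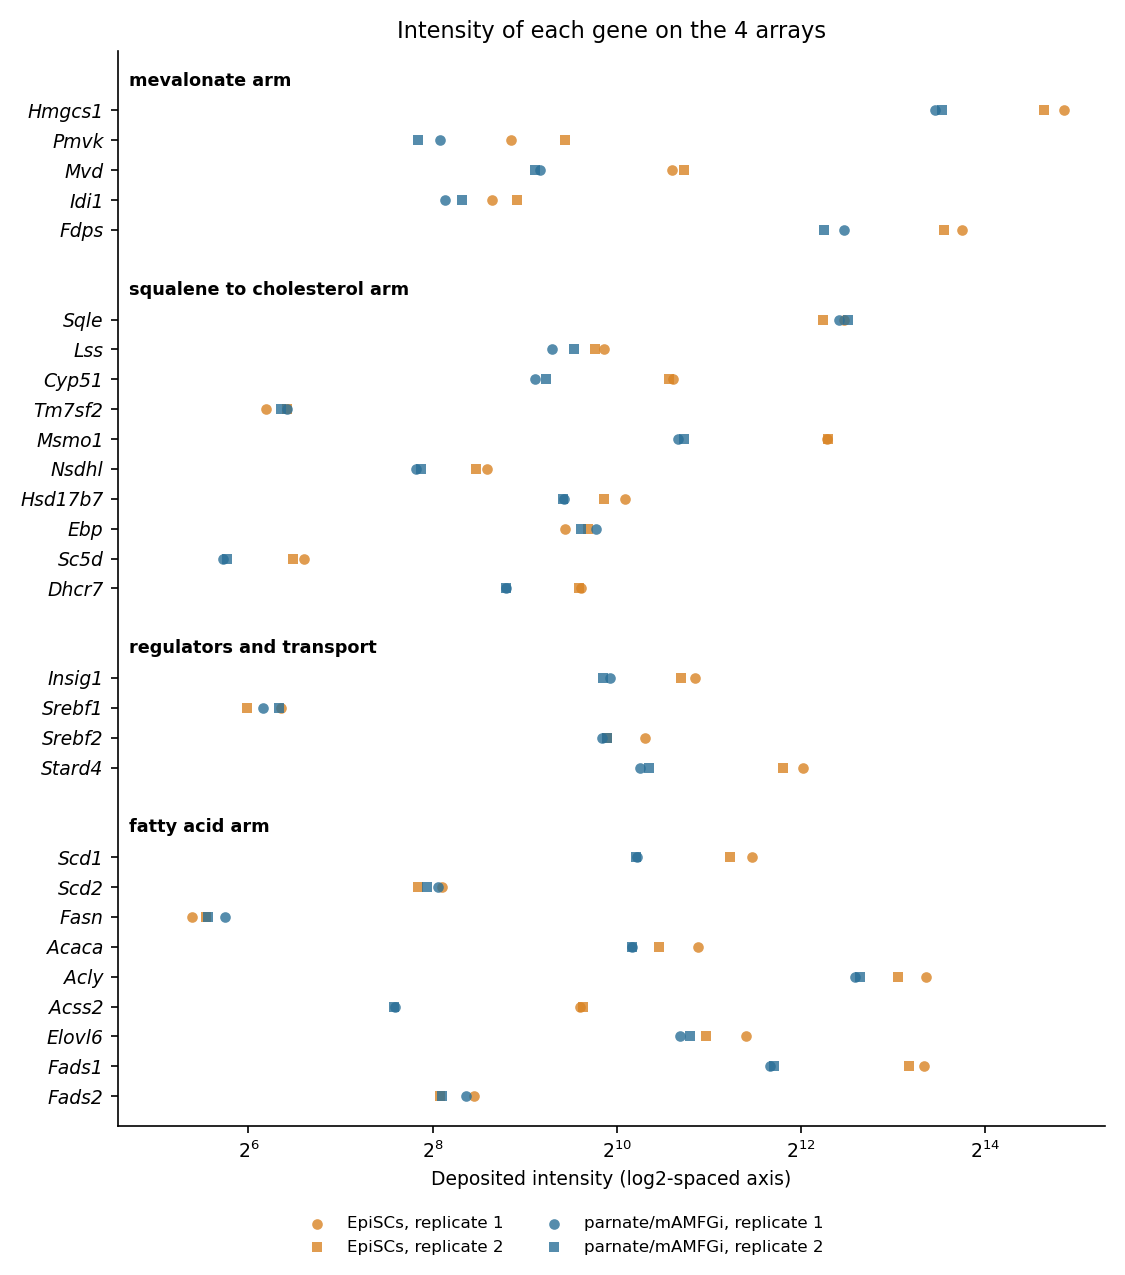
Deposited intensity (x axis, log2-spaced) of each of the 28 genes on the 4 arrays, by role. Points are single arrays, with EpiSCs in orange and parnate/mAMFGi in blue, circles for replicate 1 and squares for replicate 2. In 20 genes both blue points lie left of both orange points, as for Hmgcs1 (11246.8 and 11842.6 against 29693.4 and 25504.1), and in Fasn both lie right of them. Intensities of different probes are not comparable with each other.

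From squalene to cholesterol, 7 of 10 genes fell (70%, against 37.1% of the brighter genes), 0 rose and 3 did not pass. The 2 largest falls as measured were in enzyme genes for stripping methyl groups from lanosterol and its products. Msmo1, the sterol methyl oxidase, read 4995.6 and 5007.2 in EpiSCs and 1621 and 1699.2 in parnate/mAMFGi cells, a 3.01-fold fall (95% interval 2.63 to 3.46, limma adjusted p = 3.83e-09). Replicates of both groups were close and the groups lay far apart. Cyp51, the lanosterol demethylase, read 1558.7 and 1517.3 against 554.3 and 599.3 (2.67-fold lower, 95% interval 2.32 to 3.07, adjusted p = 1.60e-08).

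The other sterol steps fell less, as measured. Dhcr7, the reductase that makes cholesterol from 7-dehydrocholesterol, read 784.8 and 770.7 in EpiSCs and 444.7 and 444.1 in parnate/mAMFGi cells. Its EpiSC replicates differed by 0.03 on the log2 scale, and its log2 fold change was −0.81 (SE 0.09, limma adjusted p = 4.27e-06). Sc5d, the desaturase just before it, read 97.4 and 89.5 against 52.8 and 54.4 (log2 fold change −0.80, SE 0.10). Its values in parnate/mAMFGi cells lay near the array medians, so that fold is a low estimate. Nsdhl and Hsd17b7 act with Msmo1 in removing the methyl groups. Nsdhl read 385.8 and 355 against 225.3 and 234.8 (log2 fold change −0.69, SE 0.10), and its 3 other probes fell too, with log2 fold changes of −0.64, −0.58 and −0.39. Hsd17b7 read 1090.9 and 929.6 against 690.8 and 682.5 (log2 fold change −0.55, SE 0.10). Lss, which closes the ring system to give lanosterol, fell least among the genes that passed, from 931.4 and 872 to 630.6 and 742 (log2 fold change −0.40, SE 0.10, adjusted p = 0.00618); without parnate/mAMFGi replicate 1 its adjusted p was 0.142.

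Sqle, Ebp and Tm7sf2 did not pass. Sqle, the squalene epoxidase and a known control point of the pathway, read 5683.8 and 4825.9 in EpiSCs and 5460.4 and 5851.2 in parnate/mAMFGi cells, so the groups overlapped. Its log2 fold change was 0.11 with a 95% interval of −0.11 to 0.33, which does not meet the interval of Hmgcs1 (−1.47 to −1.04) or of Lss (−0.62 to −0.18). A second, dimmer Sqle probe was higher in parnate/mAMFGi cells by 0.31 on the log2 scale (964.8 and 982.8 against 1262.2 and 1158.8, limma adjusted p = 0.0161). Ebp, the sterol isomerase, read 691.4 and 828 against 873.5 and 780.8 (log2 fold change 0.13, 95% interval −0.11 to 0.36). Tm7sf2, a sterol reductase, read 73 and 85.6 against 85.6 and 81.6 (log2 fold change 0.08, 95% interval −0.14 to 0.30), close to the array medians in both groups.

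Among regulators, the genes of the SREBP proteins themselves did not pass, whereas Insig1 and Stard4 fell. These 2 of 4 genes (50%) stand against 37.1% of the brighter genes, a share not far below. Stard4, a carrier that moves cholesterol between membranes, read 4147.5 and 3567.8 in EpiSCs and 1221.6 and 1307.4 in parnate/mAMFGi cells, a 3.04-fold fall (95% interval 2.61 to 3.54, limma adjusted p = 9.95e-09). By brightest probes, only Acss2 among the 28 genes had a lower log2 fold change. Insig1, which retains SREBPs in the endoplasmic reticulum and is itself an SREBP target, read 1842.4 and 1660.7 against 973.5 and 920.6 on its brightest probe (1.85-fold lower, 95% interval 1.60 to 2.14, adjusted p = 2.97e-06). Of its 3 other probes, those that read above the array medians fell by 1.31 and 1.35 on the log2 scale, and the one that read 40.1 and 37.2 in EpiSCs, below those medians, did not pass (log2 fold change −0.02).

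Srebf2, whose product mainly drives sterol genes, read 1266.5 and 950 in EpiSCs and 916.8 and 954.5 in parnate/mAMFGi cells. The groups overlapped, with a log2 fold change of −0.23 (95% interval −0.49 to 0.03, limma adjusted p = 0.171); without EpiSC replicate 2 it was −0.44 (adjusted p = 0.0042) and without EpiSC replicate 1 −0.02 (0.913), so the value rests on which EpiSC array is kept. Srebf1, whose product mainly drives fatty acid genes, read 81.7 and 63.4 against 71.7 and 80.3 (log2 fold change 0.08, 95% interval −0.18 to 0.33). At this intensity, near the array medians, its level is poorly resolved. RNA levels of these genes do not report how much SREBP protein is cut and released.

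**Figure D3:**
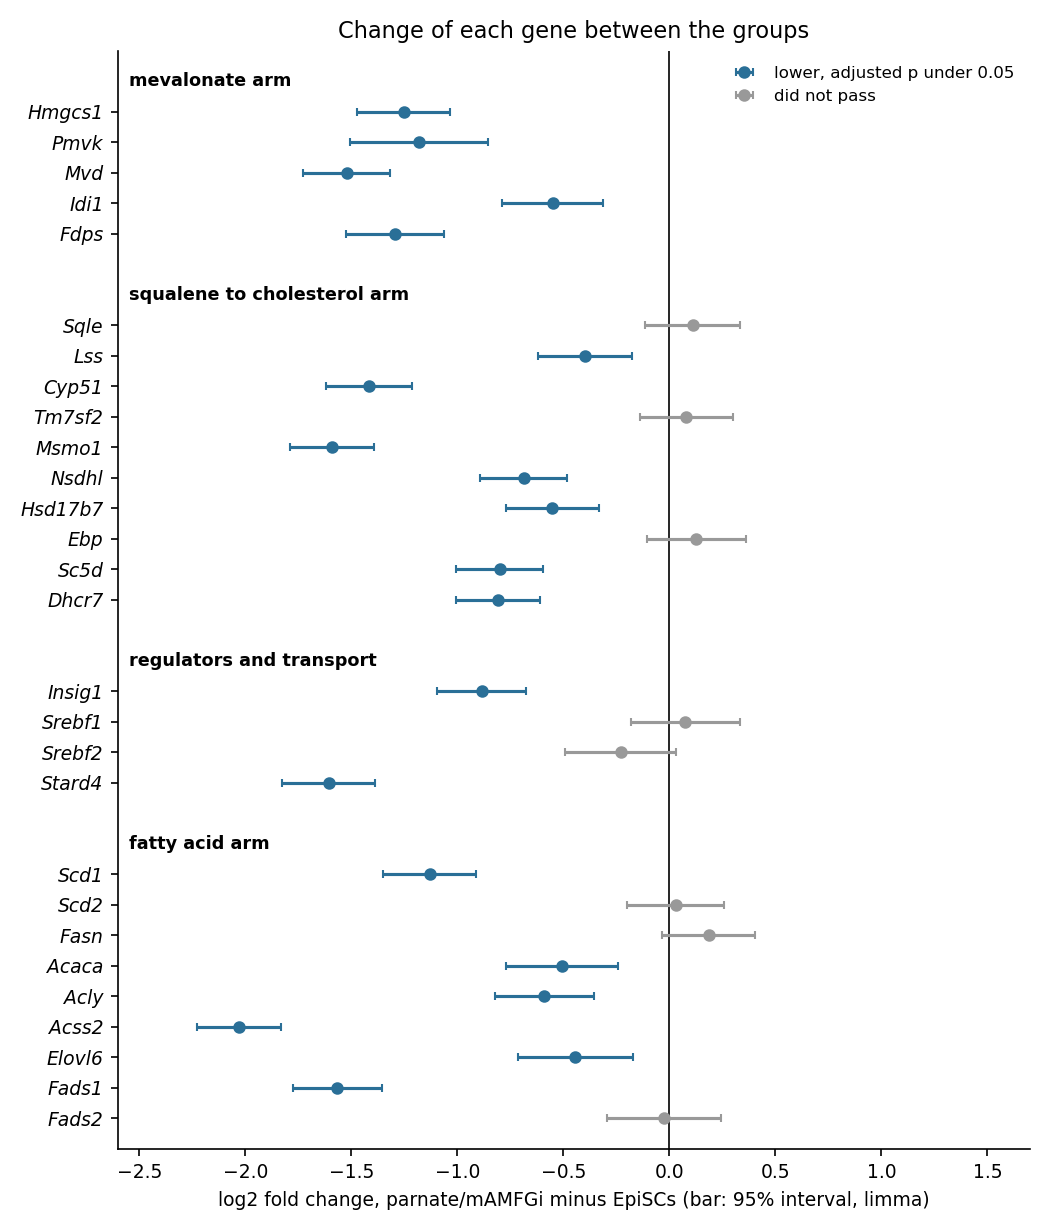
Log2 fold change (x axis, parnate/mAMFGi minus EpiSC) of each of the 28 genes with its 95% interval from limma, by role. Blue points passed an adjusted p of 0.05 and grey points did not. All 20 blue points lie below 0, from −2.03 (Acss2) to −0.40 (Lss), and the 8 grey points lie between −0.23 and 0.19.

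In the fatty acid arm 6 of 9 genes fell (66.7%, against 37.1% of the brighter genes), 0 rose and 3 did not pass. The median log2 fold change of the arm was −0.51. By brightest probes, the arm holds the largest fall of the 28 genes. Acss2, the cytosolic synthetase that makes acetyl-CoA from acetate, read 775.4 and 792.7 in EpiSCs and 193.1 and 191.1 in parnate/mAMFGi cells. This was a 4.08-fold fall (95% interval 3.56 to 4.68, limma adjusted p = 2.81e-10), and 1.04% of all genes had a lower log2 fold change. A second Acss2 probe read 48.8 to 53.9 on all 4 arrays, near their medians, and did not pass. With the probes of a gene averaged, the log2 fold change of Acss2 was −1.01 instead of −2.03, smaller than the falls of Stard4, Msmo1 and Fads1. Acly, which makes acetyl-CoA from citrate, fell less as measured, from 10507.4 and 8486.2 to 6151 and 6403.8 (log2 fold change −0.59, SE 0.11, adjusted p = 4.55e-04).

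The genes of the enzymes that build and lengthen the chain had small falls or were poorly resolved. Acaca, the acetyl-CoA carboxylase that makes malonyl-CoA, read 1894 and 1409.2 in EpiSCs, against 1150.8 and 1151 in the converted cells (log2 fold change −0.51, SE 0.12, limma adjusted p = 0.00374). Its call was lost without parnate/mAMFGi replicate 1 (adjusted p = 0.0641) or replicate 2 (0.0646), each at a log2 fold change of −0.51. Without EpiSC replicate 1 the log2 fold change was −0.29 (adjusted p = 0.043). Fasn, the fatty acid synthase, read 41.9 and 46.4 against 53.5 and 47.1, near the array medians in both groups. Its log2 fold change of 0.19 (95% interval −0.03 to 0.41) did not pass, and a change could be hidden by background at this intensity. Elovl6, which extends palmitate, read 2708.6 and 1998.4 against 1651.2 and 1774.2 (log2 fold change −0.44, SE 0.13, adjusted p = 0.0107). Its call was lost without EpiSC replicate 1 (log2 fold change −0.22, adjusted p = 0.134), without parnate/mAMFGi replicate 1 (−0.39, 0.156) or replicate 2 (−0.49, 0.0737) and after normexp correction with offset 50 (−0.37, 0.0781).

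Of each pair of desaturase genes, 1 fell and 1 did not pass. Scd1, which puts the first double bond into saturated fatty acids, read 2832.5 and 2404.9 in EpiSCs and 1195.6 and 1188.2 in parnate/mAMFGi cells (2.19-fold lower, 95% interval 1.88 to 2.55, limma adjusted p = 3.90e-07). Its close paralog Scd2 read 275.3 and 228.8 against 266.4 and 246.2, so that the groups overlapped (log2 fold change 0.03, 95% interval −0.20 to 0.26). Scd genes are similar in sequence, and a probe may not separate them fully. Fads1, a desaturase of long polyunsaturated fatty acids, read 10318.8 and 9213.9 against 3242 and 3343.6, a 2.96-fold fall (95% interval 2.56 to 3.42, adjusted p = 7.60e-09). Fads2, which acts before Fads1 on the same fatty acids, read 348.5 and 270 against 329.7 and 275.8 (log2 fold change −0.02, 95% interval −0.29 to 0.24). The intervals of Scd1 and Scd2, and those of Fads1 and Fads2, do not meet; the difference within each pair was not tested.

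The replicates of EpiSCs varied more for these genes than those of parnate/mAMFGi cells. EpiSC replicate 1 read above replicate 2 in 20 of the 28 genes (71.4%), against 51.4% of the 8838 brighter genes. The median absolute difference between replicates was 0.22 in EpiSCs and 0.08 in parnate/mAMFGi cells on the log2 scale, against 0.13 and 0.09 over the brighter genes. The widest gap was that of Pmvk, higher in replicate 2 (replicate 1 minus replicate 2, −0.59), followed by Elovl6 (0.44), Acaca (0.43) and Srebf2 (0.41), which were higher in replicate 1. Without EpiSC replicate 1, the higher one, 19 genes fell and the median log2 fold change was −0.66; without EpiSC replicate 2, 21 fell and the median was −0.74.

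Other genes of the sterol pathway were mixed. The shares that fell and rose in this and the following lists stand against 21.2% and 20.2% of all genes, and 37.1% and 32.7% of the brighter ones. Of 10 measured (of 16 listed), 4 fell (40%), 3 rose (30%) and 3 did not pass, with a median log2 fold change of −0.08. The 3 that did not pass, Ggps1, Mbtps2 and Idi2, read below the array medians on all 4 arrays and are poorly resolved. The median lies between the values of Ggps1 (−0.12) and Mbtps2 (−0.03), so it rests on dim genes. Rdh11, a retinal reductase, fell by 1.30 on the log2 scale, Insig2, the paralog of Insig1, by 1.23, and Npc2, which carries cholesterol out of lysosomes, by 1.07. Insig2 read 753.4 and 821 in EpiSCs and 332.3 and 336.3 in parnate/mAMFGi cells, and so both Insig genes fell. The fourth that fell was Lpin1, a phosphatidate phosphatase (log2 fold change −0.42). The 3 that rose were Scap (0.33), whose product escorts SREBPs, Mbtps1 (0.37), a protease that cuts them, and Tmem97 (0.46), a sterol-responsive membrane protein. The genes named to fill out a count of 5 or fewer in this and the following lists were chosen after their values were seen.

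Other genes of fatty acid and glycerolipid synthesis had more members lower than higher. Of 25 measured (of 28 listed), 13 fell (52.0%, against 21.2% of all genes and 37.1% of the brighter ones), 3 rose (12.0%, against 20.2% and 32.7%) and 9 did not pass, with a median log2 fold change of −0.38. Elovl5, which lengthens polyunsaturated fatty acids, read 6178.8 and 5394 in EpiSCs, against 1937.7 and 2230.8 in the converted cells (log2 fold change −1.47, limma adjusted p = 3.67e-08). Mlxipl (ChREBP), a carbohydrate-responsive activator of lipogenic genes, fell from 108.3 and 141.5 to 48.1 and 49.3, at the array medians (−1.35). Acsl5, an acyl-CoA synthetase, rose from 572.5 and 482.8 to 1441.2 and 1312 (log2 fold change 1.39, adjusted p = 6.75e-08). The other genes that rose were Me1 (1.04), the malic enzyme that supplies NADPH, and Mecr (0.28), of mitochondrial fatty acid synthesis.

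Lists for efflux, oxidation and uptake of lipids had medians near 0, each of which lies at or next to the value of a dim, poorly resolved gene. Of 7 measured sterol efflux and LXR genes (of 10 listed), 2 fell (28.6%), 0 rose and 5 did not pass (median log2 fold change −0.02). Abcg1, a sterol exporter, fell by 0.53 and Apoe by 0.44 on the log2 scale, and Nceh1 stood at 0.22 and did not pass. Abca1 read 34.4 to 43.1 on all 4 arrays, below their medians, and Nr1h3, Mylip and Lcat also read below them. The median of this list is the value of Lcat. At an unadjusted p under 0.05, 0 of these 7 genes were higher in limma, with no share of all genes counted at that threshold. Of 18 fatty acid oxidation genes (of 19 listed), 7 fell (38.9%), 4 rose (22.2%) and 7 did not pass (median −0.03), shares near those of the brighter genes or below them. This median lies between the values of Acadvl and of Ppard, which read 41.4 to 48.1, below the array medians. Acadl, the long-chain acyl-CoA dehydrogenase, fell by 1.68 and the carnitine palmitoyltransferase gene Cpt1b by 1.14 on the log2 scale, whereas Hadhb, a subunit of the mitochondrial trifunctional protein, rose by 1.20, with Acadm (0.83), Slc25a20 (0.72) and Etfb (0.36). Of 15 lipid uptake and storage genes, 7 fell (46.7%), 5 rose (33.3%) and 3 did not pass (median −0.06). That median is the value of Fabp4, which read 32.2 to 38.9, below the array medians. Cd36 and Scarb1, the others that did not pass, also read below them. Slc27a2, which takes up and activates fatty acids, read 71.3 and 67 in EpiSCs, against 397.1 and 393.4 in the converted cells (log2 fold change 2.52, adjusted p = 3.53e-11). Its relative Slc27a3 rose by 1.82, the lipoprotein receptor gene Vldlr fell by 1.50, and the others that rose were Lrp1 (0.43), Plin3 (0.37) and Slc27a4 (0.37).

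**Figure D4:**
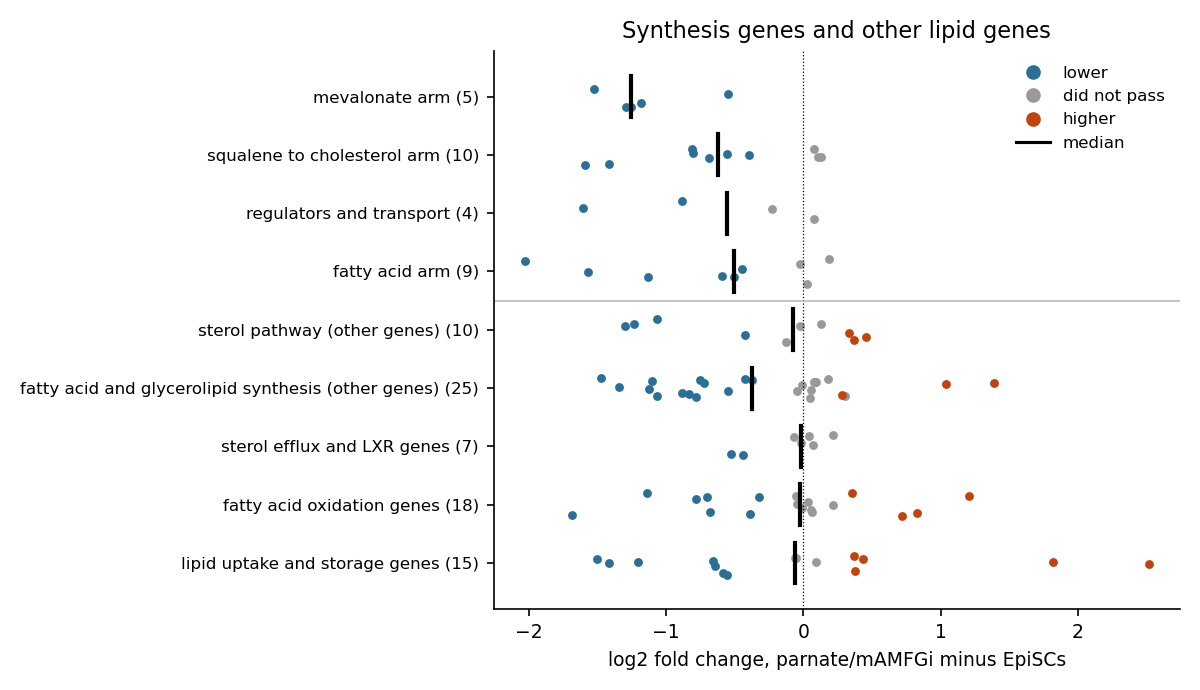
Log2 fold change (x axis, parnate/mAMFGi minus EpiSC) of the genes of the 4 roles, above the grey line, and of 5 other lists of lipid genes, below it. Each point is a gene, coloured by whether it fell, rose or did not pass an adjusted p of 0.05 in limma; black bars are medians and the number measured is in brackets. Medians run from −1.25 to −0.51 for the 4 roles and from −0.38 to −0.02 for the other lists. The other lists hold more genes that read below the array medians, so these medians are not matched for brightness.

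Markers of other cell types moved with the groups. The counts below stand against 21.2% of all genes lower and 20.2% higher, and 37.1% and 32.7% of the brighter ones. Among 10 measured markers of fibroblast feeders, 7 passed as higher, 2 as lower and 1 in neither direction, and their summed intensity was 4730.3 to 5412.2 in EpiSCs and 6902.1 to 7518.3 in parnate/mAMFGi cells. Lox gained the most, from 65.2 and 53.7 to 1149.7 and 1076.7 (log2 fold change 4.23), and weighs heavily in the gain of this sum. Col1a1, a collagen gene of fibroblasts, read 109.5 and 89.7 against 474.7 and 441.2, while Thy1 and Vim fell by 1.04 and 0.38 on the log2 scale. The part of feeder RNA in the falls of synthesis genes was not tested, and in such bulk samples fewer cells of a type and less RNA per cell cannot be told apart. Of 7 visceral endoderm markers, a cell type that secretes lipoproteins, 3 rose and 4 did not pass, and their summed intensity was 322.9 to 326.4 against 474.3 to 488.8. Its defining genes Apoa1 (41.7 to 46.9) and Ttr (35.5 to 46) read below the array medians on all 4 arrays. The genes that rose were Amn, from 75.6 and 89.5 to 212.6 and 220.2 (log2 fold change 1.40), Ttr (0.28) and Mttp (0.27), and Amn made up most of the gain in the sum. Most markers of the labelled cell types moved with the labels. Of 7 ES cell markers 6 rose in parnate/mAMFGi cells, with Zfp42 at 49.1 and 66.8 against 2529.1 and 2610.2 and Esrrb at 85.7 and 88 against 3069.7 and 2745.1. Of 7 EpiSC markers 5 fell, Otx2 rose and Eomes did not pass, with Fgf5 at 289.5 and 210.3 against 144.1 and 143.6. The summed intensity of this list was higher in parnate/mAMFGi cells (4137.7 and 4197.5 against 5111.3 and 5242.8). Otx2, its brightest gene, read 3140.5 and 3169.1 against 4668.9 and 4812.1. Of 6 markers shared by both cell types, 4 rose (Sox2, Sall4, Utf1 and Lin28a, by 1.66, 1.42, 1.18 and 0.68 on the log2 scale), and Pou5f1 and Nanog did not pass. Pou5f1 read 9628.3 and 10913.4 against 10739.9 and 9657.2.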

How the data were processed

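Total RNA of 2 EpiSC and 2 parnate/mAMFGi samples was labelled with biotin, per the labels' protocols, with the Illumina TotalPrep kit. The deposited intensities of the authors' processed table, 1 per probe and array on a linear scale, were used. No source used here names the software, the background step or the normalization behind them; nearly equal quartiles on the 4 arrays point to a normalization between arrays. A second deposited table was not used because its 8 value columns match no label, so no probe was called detected or not. The labels do not say whether the replicates were separate cultures, so p-values may not measure the spread between cultures. The variance behind each p-value is weighted towards a value shared by all probes (11.8 degrees of freedom, against 2 of the probe itself). No slide or scan batch is named, and the slide block planned as an alternative was not run.

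Intensities were log2-transformed without pseudocount or filter and tested with lmFit and eBayes of limma 3.58.1 (R 4.3.3), with Benjamini-Hochberg adjustment over 25697 probes. The residual degrees of freedom were 2 per probe; eBayes added 11.8 at a shared SD of 0.10. The number of arrays limits the precision. Of the probes, 23978 had 1 gene symbol in the platform annotation, 0 had several and 1719 had none; 0 symbols differed from RefSeq (GRCm38.p6). Of the 28 genes, 5 had more than 1 probe. The fit was tested on simulated data drawn from its own variance model, which checks the code and not the assumptions of the model. The text names all 28 genes, the up to 3 genes with the largest absolute change of each of 5 other lipid lists, any gene needed to fill a count, and fixed markers. The genes, lists and motifs were chosen with earlier results of these data known. Alternatives were other normalizations, normexp background correction with offsets of 50 and 16, a filter on dim probes, other variance settings, a replicate block, leaving out each array and averaging the probes of a gene.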

Additional observations from a re-analysis of the deposited data

How the results depend on the processing

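Under 14 alternatives, the number of the 28 genes that fell ranged from 17 to 21 around the reported 20, and 0 rose in each. Leaving out 1 array gave 17 to 21 genes and median log2 fold changes of −0.74 to −0.61; the median without EpiSC replicate 2 (−0.74) moved by more than the spread between arrays. Averaging all probes of a gene gave 20 genes and a median of −0.58, with Acss2 at −1.01; it has no count over probes. Of the 20 calls, 17 were kept under every alternative run; those of Lss, Acaca and Elovl6 were lost under 1, 2 and 4, and that of Srebf2 was gained under 1. No call changed direction. The same-numbered arrays of the 2 groups did not deviate together (r = −0.06 over all probes and −0.30 over the 28 genes), so the numbers were not taken as pairs. With the replicate block 20 genes fell, and 5084 probes rose and 4828 fell, against 5069 and 4801 without it. No scaling moved the median of all probes by more than 0.1. Counts over all probes kept within 1.5 times throughout, from 3737 to 5165 higher and from 3753 to 5360 lower. With background in every value, the fall of Sc5d, dim in parnate/mAMFGi cells, is a low estimate, and Fasn, Srebf1 and Tm7sf2, dim in both groups, are poorly resolved.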
